A study of Homo sapiens with 26 samples.

Results

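The genes described here are 9 genes of MHC class I antigen presentation, namely HLA-B, HLA-C, HLA-E, B2M, TAP1, TAP2, TAPBP, PSMB8 and PSMB9, of 58039 genes in the count table. They were chosen by name, with earlier results of these data known. Of the 9, 8 passed the filter on low counts that left 17198 genes for testing, and PSMB8 did not. The study holds 26 RNA-seq libraries in 9 groups, all made from the human colorectal carcinoma line HCT116. The groups were HCT116 control cells (control, n = 3), control cells given JQ1 (control+JQ1, n = 3), CRISPR knockouts of CDK8 (CDK8KO-C1 and CDK8KO-C2, n = 3 each), of CDK19 (CDK19KO-C1 and CDK19KO-C2, n = 3 each) and of both genes (DKO-C1 and DKO-C2, n = 3 each), and DKO-C1 given JQ1 (DKO-C1+JQ1, n = 2). The paralogous kinases CDK8 and CDK19 take each other's place in the kinase module of Mediator. JQ1 inhibits BET bromodomain proteins by keeping them from acetylated histones. All groups share the HCT116 background and the same growth medium with serum. The sources used here give no dose or time of JQ1 and no edited sites and do not say whether C1 and C2 are single clones, so each knockout rests on 2 sublines. The libraries called DKO-C2 here have column names with the subline number 3, which no label has, and were given to DKO-C2 by elimination. One of the DKO-C1+JQ1 columns likewise has a replicate number that no label has.

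MHC class I molecules show peptides from inside the cell to CD8+ T cells. The proteasome cuts proteins into peptides, and its induced subunits, encoded by PSMB8 and PSMB9, replace constitutive ones in the immunoproteasome. TAP1 and TAP2 form the transporter that carries peptides into the endoplasmic reticulum, where tapasin, encoded by TAPBP, holds empty class I molecules at the transporter. The class I molecule itself joins a heavy chain (HLA-B, HLA-C, or the less variable HLA-E, which is also read by receptors of natural killer cells) to the light chain beta-2-microglobulin, encoded by B2M. Interferons raise most of these genes together, and the transactivator NLRC5 drives class I transcription.

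With the exception of B2M (chromosome 15, 44711487 to 44718877, plus strand, build hg38 in the GENCODE v29 annotation), all of the genes lie in the MHC region of chromosome 6. HLA-E (30489467 to 30494205) and PSMB9 (32844136 to 32859585) are on its plus strand. HLA-C (31268749 to 31272130), HLA-B (31269491 to 31357188), TAP2 (32821833 to 32838780), PSMB8 (32840717 to 32844703), TAP1 (32845209 to 32853978) and TAPBP (33299694 to 33314387) are on the minus strand. Counts are per gene, over its exons. The annotated span of HLA-B reaches over HLA-C, and the pair shares 35 exon bases on the same strand. TAP2 shares 2064 exon bases on the same strand, 32.3% of its own, with the coding gene model AL669918.1. On the opposite strand, TAP1 shares 456 exon bases and PSMB8 618 with the noncoding PSMB8-AS1, PSMB8 and PSMB9 share 139, and HLA-B shares 542 with the pseudogene AL671883.2. As the sources used here give no strand setting for the counting, reads from such overlaps cannot be told apart.

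Reads that fit several genes equally are a limit for the HLA genes. Of the 50-base words in the annotated transcripts, 2.7% in HLA-B, 5.4% in HLA-C and 4.3% in HLA-E also occur in transcripts of other genes, against 0% in B2M and PSMB8, 0.9% in TAP1, 2.9% in PSMB9, 4.2% in TAPBP and 31.3% in TAP2. With 100-base words the shares are at most 0.5% for the HLA genes and 30.3% for TAP2. HLA genes also differ between people and cell lines, and reads of an allele that departs from the reference may be lost or fall on a neighbour, so levels of the HLA genes are uncertain in every group. In the DKO libraries, a further point is that the class of genes with the most shared sequence stood lower. The median log2 fold change of DKO against control was 0.05 for 8987 protein-coding genes with under 1% of shared words, 0.02 for 2791 genes with 1% to under 10%, -0.01 for 1108 genes with 10% to under 50%, and -0.16 for 302 genes with 50% or more. For the class of 50% or more, the median against control was -0.04 in CDK8KO and -0.06 in CDK19KO, with 0.02 for under 1% in both. HLA-B, HLA-C and HLA-E lie in the class of 1% to under 10%, and TAP2 in that of 10% to under 50%. Whether shared sequence changed the counts of these genes was not tested.

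Stretches of DNA before RefSeq start sites were searched for short motifs. RefSeq promoters (GRCh38.p14, the 250 bases before the start) were matched for 8 of the 9 genes, 10 promoters in all as PSMB8 and TAP1 have 2 start sites each, and HLA-E had none. Searched on both strands were an interferon response core (GAAA, any 2 bases, GAAA), the NF-kappaB consensus, the half-site TGACG, the CCAAT box and the GAS element (TTCNNNGAA). The 3 windows below are those of the heavy chains HLA-B and HLA-C and of their light chain, with motif matches in capitals. They are shown because the heavy chains are close copies there and the light chain is not. HLA-B is at chr6:31357219-31357368 on the minus strand, HLA-C at chr6:31272132-31272296 on the minus strand and B2M at chr15:44711361-44711484 on the plus strand.
HLA-B: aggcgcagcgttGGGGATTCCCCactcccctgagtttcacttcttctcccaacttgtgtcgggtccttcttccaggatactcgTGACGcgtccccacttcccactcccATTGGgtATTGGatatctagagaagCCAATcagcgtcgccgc
HLA-C: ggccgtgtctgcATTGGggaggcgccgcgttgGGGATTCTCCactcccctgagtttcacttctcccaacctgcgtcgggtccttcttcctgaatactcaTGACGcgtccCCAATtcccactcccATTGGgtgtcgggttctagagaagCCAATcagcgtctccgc
B2M: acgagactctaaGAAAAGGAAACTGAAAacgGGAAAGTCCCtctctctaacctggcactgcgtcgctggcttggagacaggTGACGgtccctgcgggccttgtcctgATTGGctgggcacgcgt

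Over the 250 bases, HLA-B and HLA-C were identical in 226 of 254 alignment columns (89.0%), whereas HLA-B and B2M matched in 49.5%. All 3 windows hold an NF-kappaB match, TGACG and CCAAT on one strand or the other. The interferon response core, in the exact letters searched, was found in B2M, where a pair of cores overlap, and in the transporter and tapasin genes. Their stretches are given with the cores in capitals, as the overlapping pairs are the feature that B2M, TAP1 and TAPBP have in common. TAP1 is at chr6:32853817-32853844, TAP2 at chr6:32838782-32838803 and TAPBP at chr6:33314079-33314104, each on the minus strand. These 3 stretches lie before the RefSeq start but inside exons that GENCODE v29 annotates to coding genes.
TAP1: ggccgcTTTCGATTTCGCTTTCccctaa
TAP2: ggaagcGAAAGCGAAAgctgcc
TAPBP: ttggagGAAAGTGAAAGTGAAAggag

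The interferon response core was in 4 of the 10 promoters and in 3.02% of all 35114 RefSeq promoters of the same length. The NF-kappaB consensus was in 5 of 10 (5.21% of all), TGACG in 6 of 10 (21.2%), CCAAT in 5 of 10 (32%) and the GAS element in 2 of 10 (6.57%), those of the second start sites of PSMB8 and TAP1. A match of letters is a description of the window and does not show that a factor binds. HLA-B and HLA-C had no match to the exact letters of the interferon response core. As variants of those letters were not searched, this does not show that they lack an interferon response element.

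Per library, gene counts ran from 17700864 to 19093094. Epithelial markers were present, with EPCAM, KRT8, KRT18, CDH1 and CDX2 expressed, although 2 of 8 colon markers (VIL1 and CDX1) were under 1 CPM (counts scaled to the size of the library) in every group. All 8 leukocyte and all 4 endothelial markers were under 1 CPM in every group, and 4 of 6 fibroblast markers were as well. Summed over the list, the leukocyte markers were at 0.909 to 1.05 CPM in control and at 0.376 to 1.36 CPM in the DKO libraries. CDK8 RNA was at 87.1% and 91% of control in CDK8KO-C1 and C2 and at 74.3% and 76.7% in DKO-C1 and C2, and CDK19 RNA was at 69.3% and 93.1% in CDK19KO-C1 and C2. In DKO-C1 and C2, CDK19 RNA was at 122% and 141% of control. CDK8 RNA in CDK8KO-C2 (edgeR adjusted p = 0.0571) and CDK19 RNA in CDK19KO-C2 (adjusted p = 0.278) were not called as different from control. Gene counts therefore do not check these knockouts. Within DKO-C2, replicate b stood apart from replicates a and c (chi-square per degree of freedom 13.2 and 10.8, against 2.28 between a and c).

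Directions depend on how libraries are scaled. Factors were taken from the genes (TMM), and as an alternative from the ERCC spike-in RNA. The latter moved the median gene, on the log2 scale and against control, by -1.22 (CDK8KO), -1.65 (CDK19KO) and -0.90 (DKO), and by -0.37 and -0.27 for JQ1 in control and in DKO-C1. ERCC counts were 1.06% to 1.25% of gene counts in control and 1.80% to 2.46% in DKO. The single knockouts, whose labels name no spike-in, held 2.22% to 4.56%. Rose and fell therefore mean a change relative to the median gene. On the ERCC scale, the median gene was at -0.92 in DKO, and the share of all genes called is not given here. On that scale, HLA-E (-0.43), B2M (-0.34), TAP1 (-0.27) and TAP2 (-0.48) were called lower than control in DKO and PSMB9 was called higher (0.71). HLA-B (-0.07, adjusted p = 0.625), HLA-C (-0.20, adjusted p = 0.132) and TAPBP (0) were not called there. Taken from the median gene on that scale, the same genes lay between 0.44 (TAP2) and 1.63 (PSMB9) above it. Whether the cells differed in total RNA or in the amount of spike-in per sample was not tested. In bulk samples, a lower level per cell and fewer expressing cells cannot be told apart.

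**Figure D1:**
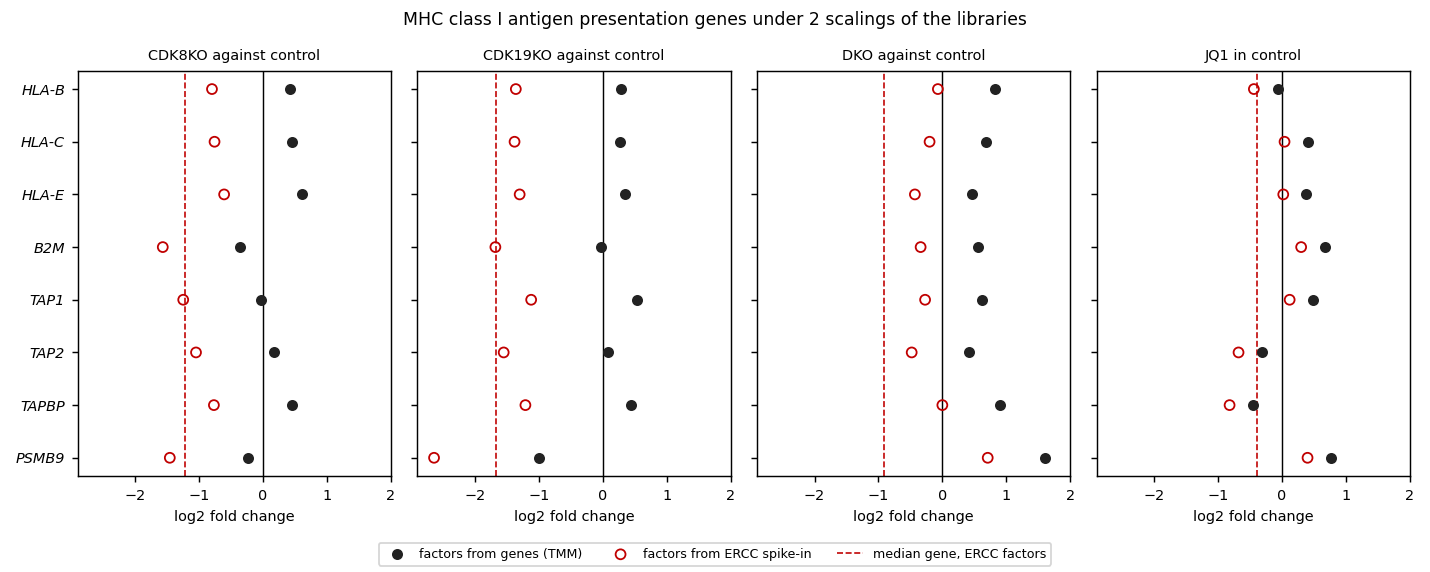
Log2 fold change of the 8 tested genes (horizontal axis) in 4 comparisons, with library factors from the genes (filled points) and from the ERCC spike-in (open red points); the dashed line is the median of all genes on the ERCC scale. The open points lie left of the filled ones by about the distance of the dashed line from 0, so in the knockouts the rises turn negative on the ERCC scale, except for TAPBP (0) and PSMB9 (0.71) in DKO, and under JQ1 they shrink to 0.02 to 0.40, while positions against the median gene barely move.

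In control cells the class I components were expressed at very unequal levels. Per kilobase of exon, the level of HLA-C was 81.4 ± 0.767 CPM (SD, n = 3), followed by B2M at 33.6 ± 0.734, HLA-B at 26.8 ± 0.572, HLA-E at 24.0 ± 0.497 and TAPBP at 17.4 ± 0.578. The length used is that of all annotated exons of a gene merged, 6079 bases for B2M and 2507 for HLA-C. It need not be that of the transcript expressed, so the order between genes depends on it. Without division by length, HLA-C had 204 CPM and B2M 204.5 CPM. The transporter genes stood lower, TAP1 at 5.39 ± 0.0684 CPM per kilobase and TAP2 at 5.32 ± 0.150, and their ranges overlap. The immunoproteasome genes were the lowest of the 9, with PSMB9 at 0.401 ± 0.0409 CPM per kilobase and PSMB8 at 0.0357 ± 0.0309. PSMB8 had 0 to 6 counts in every library of the study, where a count of 0 allows up to 3 counts, so no change of PSMB8 was detectable at this depth.

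**Figure D2:**
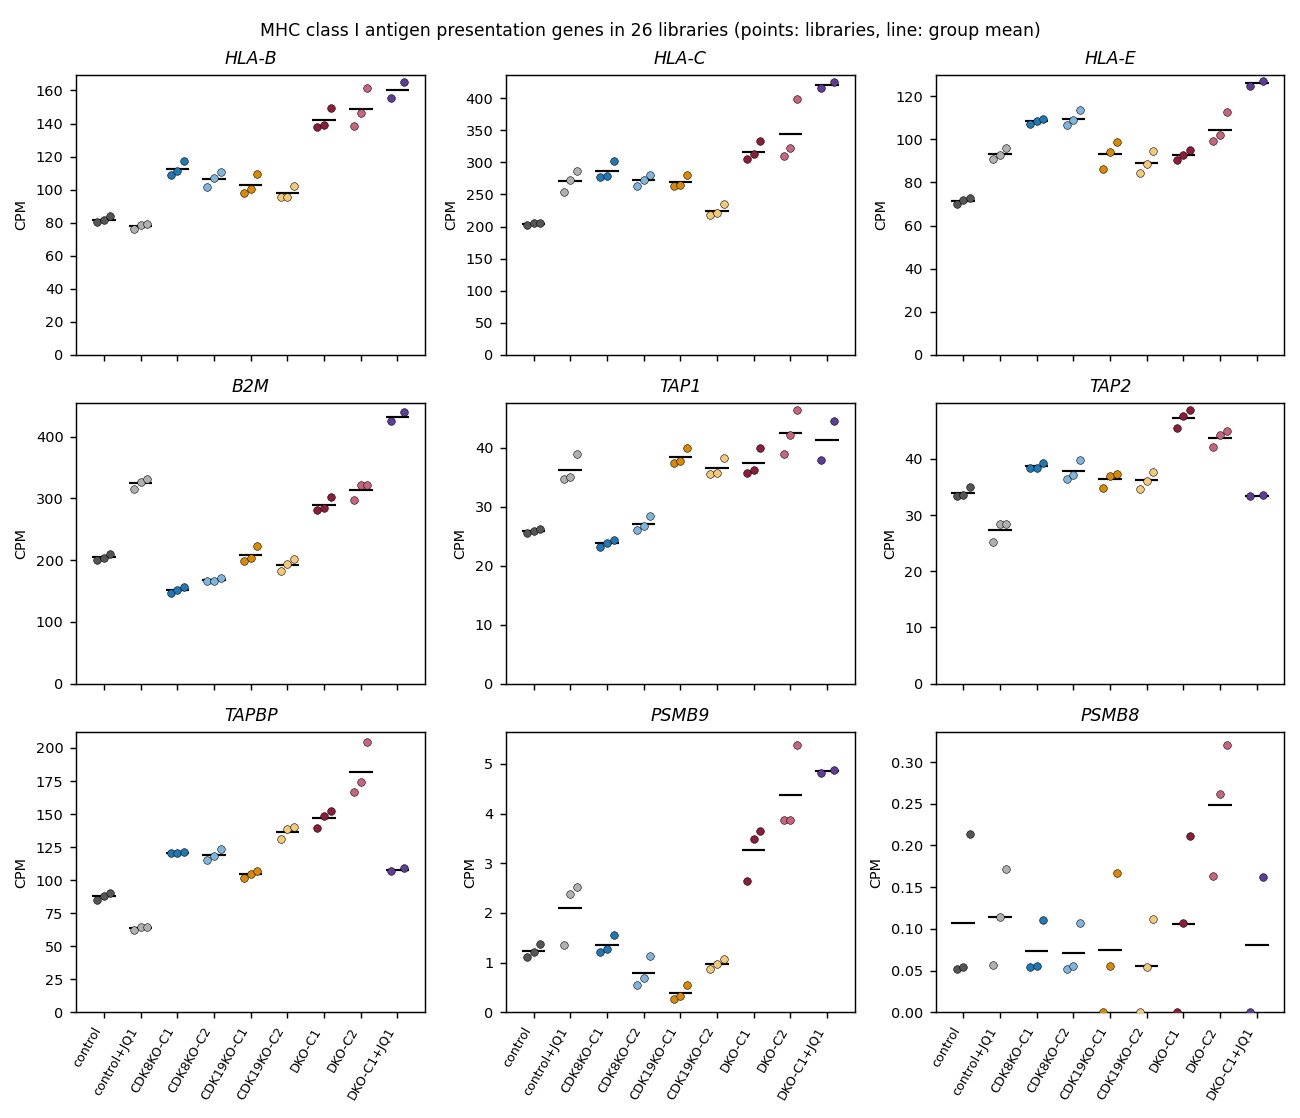
CPM of each gene (vertical axis, from 0) in the 26 libraries by group, with points for libraries and lines for group means. A DKO group has the highest mean of every gene, DKO-C1+JQ1 for 5 of the 9, and PSMB8 stays between 0 and 0.32 CPM throughout. These are TMM-scaled levels, and the order of the groups differs on the ERCC scale. There, 4 of the 8 tested genes were called lower than control in DKO and 1 higher, with the median gene at -0.92.

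Loss of both kinases was followed by a rise of every tested gene of the set. In DKO against control, 8 of 8 rose and 0 fell (median log2 fold change 0.66, against -0.0209 over all genes). This was in a comparison in which 61.5% of all genes were called, 29.4% higher and 32.1% lower. For each of the 8, all 6 DKO libraries lay above all 3 control libraries. The share of all genes whose libraries separate in this way was not counted. The rises were between 1.34-fold and 3.05-fold, and all 8 were called higher in DKO-C1 (27% of all genes) and in DKO-C2 (28.4% of all genes) taken alone. Without DKO-C2 replicate b all 8 were still called higher, at 0.42 (TAP2) to 1.65 (PSMB9). Other measures moved with DKO too. The summed markers of colon epithelium were at 3330 to 3860 CPM in control and 5570 to 7070 in DKO. Of the 6 tested, KRT8 (0.77), KRT18 (0.97) and CDH1 (0.63) were higher and EPCAM (-0.15), CDX2 (-0.18) and KRT20 (-3.23) lower. The fibroblast markers were at 13.8 to 15.4 and 23.6 to 31.5 CPM, nearly all of it COL1A1, with LUM at 0 in all libraries. The mitochondrial share of counts was 6.90% to 8.24% in control and 4.55% to 5.72% in DKO. Their part in the rise was not tested.

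Among the heavy chains, HLA-B had 81.4, 83.8 and 80.4 CPM in control, 138, 139 and 150 CPM in DKO-C1 and 139, 162 and 147 CPM in DKO-C2. The DKO values do not overlap the control values, and the sublines overlap each other. HLA-B rose by a log2 fold change of 0.83 ± 0.0487 (SE; edgeR quasi-likelihood test, adjusted p = 1.86e-18). HLA-C had 202 to 205 CPM in control, 305 to 333 in DKO-C1 and 310 to 399 in DKO-C2, a log2 fold change of 0.69 ± 0.0537 (adjusted p = 2.31e-14). HLA-E, whose groups again did not overlap, went from 69.8 to 72.7 CPM in control to 90.6 to 95.1 in DKO-C1 and 99.1 to 113 in DKO-C2 (0.46 ± 0.0475, adjusted p = 3.69e-11).

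The light chain B2M had 209, 201 and 204 CPM in control. It had 302, 284 and 282 CPM in DKO-C1 and 322, 321 and 297 CPM in DKO-C2, where every library was above every control library. B2M rose by 0.56 ± 0.0419 log2 units (adjusted p = 4.87e-15). The ratio of B2M CPM to the summed CPM of HLA-B, HLA-C and HLA-E was 0.572 ± 0.00974 (SD, n = 3) in control, 0.525 ± 0.0382 in DKO-C1 and 0.528 ± 0.0538 in DKO-C2. The DKO-C2 ratios overlap those of control, and the highest of DKO-C1 equals the lowest of control at 0.564.

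Both subunits of the peptide transporter rose. TAP1 had 25.5, 26.2 and 25.9 CPM in control, 35.7, 36.3 and 40.0 CPM in DKO-C1 and 38.9, 46.4 and 42.2 CPM in DKO-C2 (log2 fold change 0.62 ± 0.0611, adjusted p = 1.09e-11). TAP2, which shares 31.3% of its words with other gene models and had the smallest of the 8 rises, went from 33.3 to 35.1 CPM in control to 45.5 to 48.7 in DKO-C1 and 42.1 to 45.0 in DKO-C2 (0.42 ± 0.0502, adjusted p = 1.59e-09). The tapasin gene TAPBP had 90.6, 87.9 and 84.7 CPM in control, 140, 153 and 149 CPM in DKO-C1 and 174, 205 and 166 CPM in DKO-C2. Its rise of 0.90 ± 0.0493 (adjusted p = 2.15e-19) was called on non-overlapping groups, and DKO-C2 lay wholly above DKO-C1.

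PSMB9, the induced proteasome subunit, had the largest fold and the lowest counts of the 8. Its libraries held 23, 25 and 21 counts in control, 50, 67 and 68 in DKO-C1 and 101, 71 and 74 in DKO-C2. In CPM, these were 1.12 to 1.37 in control, 2.65 to 3.65 in DKO-C1 and 3.87 to 5.39 in DKO-C2, so the groups do not overlap. The log2 fold change was 1.61 ± 0.191 (adjusted p = 1.38e-09), with a 95% interval from 1.24 to 1.99 that is wider than that of any other tested gene of the set. PSMB8 had 1, 1 and 4 counts in control, 4, 0 and 2 in DKO-C1 and 6, 3 and 5 in DKO-C2, which were too few to test.

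**Figure D3:**
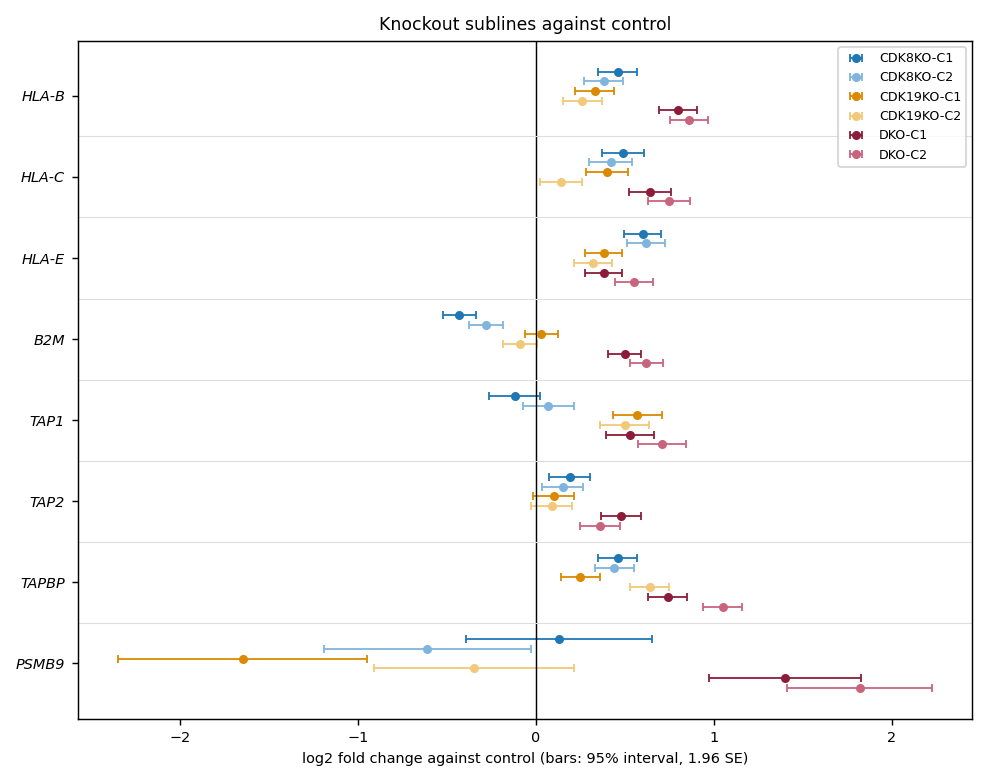
Log2 fold change against control (horizontal axis) of the 8 tested genes in the 6 knockout sublines, with 95% intervals. All DKO points lie to the right of 0, from 0.36 for TAP2 in DKO-C2 to 1.82 for PSMB9 in DKO-C2. B2M lies left of 0 in both CDK8KO sublines, and PSMB9 in CDK19KO-C1 is at -1.65. With ERCC factors the values over both DKO sublines turn negative except for TAPBP (0) and PSMB9, and 4 of them are called lower, with the median gene at -0.92. On that scale HLA-B and TAPBP were at 86.1% and 83% of control in DKO-C1 and at 106% and 121% in DKO-C2. The other tested genes lay on the same side of control in both DKO sublines.

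The single knockouts moved the heavy chains and tapasin up, and parted on B2M, TAP1 and PSMB9. In CDK8KO against control, 5 of 8 rose and 1 fell (40.5% of all genes were called, 19.5% higher and 21% lower; the median log2 fold change was 0.30 for the set and -0.0165 for all genes). HLA-E (0.61 ± 0.0476, adjusted p = 1.48e-13), HLA-C (0.45 ± 0.0534, adjusted p = 7.69e-09), HLA-B (0.42 ± 0.0485, adjusted p = 3.75e-09) and TAPBP (0.45 ± 0.0491, adjusted p = 9.44e-10) rose, with 6 of 6 libraries above all controls for each. How many of all genes separate from control in this way was not counted. TAP2 rose by 0.17 ± 0.0507 (adjusted p = 0.00645). On the ERCC scale these 5 were below control, between -1.05 (TAP2) and -0.61 (HLA-E). The summed epithelial markers were at 6310 to 6430 CPM in CDK8KO-C1 and 5120 to 5350 in C2, and the fibroblast markers at 21.9 to 24.3 and 15.3 to 18 CPM, against 3330 to 3860 and 13.8 to 15.4 in control. The part of these in the result was not tested.

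B2M moved the other way in CDK8KO. It had 147, 152 and 157 CPM in CDK8KO-C1 and 167, 172 and 166 CPM in CDK8KO-C2, against 201 to 209 CPM in control. All 6 libraries lay below all controls, and B2M fell by 0.36 log2 units (SE 0.0412, adjusted p = 3.67e-09). Light chain and heavy chains thus separated, and the ratio of B2M to the summed heavy chains was 0.300 ± 0.0107 (SD, n = 3) in CDK8KO-C1 and 0.344 ± 0.0119 in CDK8KO-C2, below the 0.564 to 0.583 of the control libraries. TAP1 (-0.03 ± 0.0631, adjusted p = 0.77) and PSMB9 (-0.24 ± 0.243, adjusted p = 0.459) were not called; the interval of TAP1 runs from -0.15 to 0.10 and that of PSMB9 from -0.72 to 0.23.

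In CDK19KO against control, 5 of 8 rose and 1 fell (43% of all genes were called, 21% higher and 22% lower; the median log2 fold change was 0.28 for the set and -0.0186 for all genes). TAP1 led with 37.8, 37.4 and 40.0 CPM in CDK19KO-C1 and 38.2, 35.6 and 35.6 CPM in CDK19KO-C2, against 25.5 to 26.2 CPM in control. The groups do not overlap, and TAP1 rose by 0.53 ± 0.0614 (adjusted p = 3.29e-09). TAPBP (0.45 ± 0.0491, adjusted p = 1.12e-09), HLA-E (0.35 ± 0.0476, adjusted p = 1.22e-07), HLA-B (0.29 ± 0.0486, adjusted p = 5.42e-06) and HLA-C (0.27 ± 0.0532, adjusted p = 6.88e-05) rose as well, whereas on the ERCC scale these 5 were at -1.38 to -1.12. The rise of HLA-C was not called in CDK19KO-C2 alone (0.14, adjusted p = 0.0635). The mitochondrial share of counts was 4.97% to 6.37% in CDK19KO against 6.90% to 8.24% in control, and the epithelial markers were at 4200 to 4360 CPM, whose part in the result was not tested.

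B2M had 199, 204 and 222 CPM in CDK19KO-C1 and 183, 194 and 202 CPM in CDK19KO-C2, which overlap the control range (-0.03 ± 0.0414, adjusted p = 0.601). TAP2 was not called either (0.09 ± 0.0509, adjusted p = 0.134, interval -0.01 to 0.19). PSMB9 was the gene that fell, by 1.0 log2 unit (SE 0.274, adjusted p = 0.00311). It had 6, 10 and 5 counts in CDK19KO-C1 and 18, 19 and 16 in CDK19KO-C2, against 21 to 25 in control, so the fall rests mostly on subline C1 (-1.65 ± 0.356, adjusted p = 0.000202) and was not called in C2 alone (-0.35 ± 0.287, adjusted p = 0.353).

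Compared directly, CDK8KO was above CDK19KO in 4 genes and below it in 2 of 8 (47.1% of all genes were called, 23.6% higher and 23.4% lower). TAP1 differed most in its test, with 23.3 to 28.5 CPM in CDK8KO and 35.6 to 40.0 CPM in CDK19KO (-0.56 ± 0.0496, adjusted p = 2.21e-12; -0.13, adjusted p = 0.282, with ERCC factors). B2M was lower in CDK8KO (-0.33 ± 0.0341, adjusted p = 1.65e-10), a difference that was 0.11 (adjusted p = 0.337) with ERCC factors. HLA-E (0.26 ± 0.0376, adjusted p = 2.88e-07), HLA-C (0.18 ± 0.0427, adjusted p = 0.000578), HLA-B (0.13 ± 0.0387, adjusted p = 0.00587) and PSMB9 (0.75 ± 0.242, adjusted p = 0.00969) were higher in CDK8KO. TAPBP was equal on average (0 ± 0.0389), but at 0.21 between the C1 sublines and -0.20 between the C2 sublines. PSMB9 too turned to -0.27 between the C2 sublines (adjusted p = 0.547), and its call was lost without CDK8KO-C2 replicate 2 (adjusted p = 0.0743). The call of HLA-C was lost between the C1 sublines (0.08, adjusted p = 0.255), and that of HLA-B between the C2 sublines (0.12, adjusted p = 0.0712).

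The next question was whether the DKO effect equals the sum of both single log2 effects. It departed from the sum in 4 of 8 genes, above it in 3 and below it in 1, where 59.2% of all genes were called, 29.4% above the sum and 29.9% below it. For B2M the sum of a fall and no call stood against a rise, a departure of 0.94 ± 0.0530 (adjusted p = 6.8e-19). For PSMB9, which rose in neither single knockout, it was 2.85 ± 0.326 (adjusted p = 7.54e-10). HLA-E was below the sum (-0.50 ± 0.0605, adjusted p = 3.57e-09). Its level was 98.7 ± 8.04 CPM in DKO and 109 ± 2.5 CPM in CDK8KO, whose libraries overlap. Each SD is over 6 libraries and pools 2 sublines, which were at 92.8 CPM (DKO-C1) and 104.6 CPM (DKO-C2) in DKO. The call of TAP2 (0.16 ± 0.0648, adjusted p = 0.0361) was lost with DESeq2 (adjusted p = 0.063), with no filter on low counts (adjusted p = 0.177), in the C2 sublines (adjusted p = 0.228) and without any 1 of 8 libraries, with values of 0.13 to 0.15. These were control replicate 1, CDK8KO-C1 replicate 2, CDK8KO-C2 replicates 2 and 3, CDK19KO-C1 replicate 3, CDK19KO-C2 replicate 1, DKO-C1 replicate 3 and DKO-C2 replicate a.

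HLA-B (0.12 ± 0.0614, adjusted p = 0.0881), HLA-C (-0.03 ± 0.0676), TAP1 (0.12 ± 0.0787) and TAPBP (0 ± 0.0621) were not called as departing from the sum. Their 95% intervals lie within -0.16 and 0.27. By sublines, HLA-B was called in the C2 sublines (0.23, adjusted p = 0.013) and, over both, without CDK19KO-C1 replicate 3 (0.14, adjusted p = 0.0397) or DKO-C2 replicate a (0.15, adjusted p = 0.0328). HLA-C was called in the C1 sublines (-0.26, adjusted p = 0.00999). TAPBP was called below the sum in the numbered libraries alone, with the replicate block (-0.16, adjusted p = 0.0124) and without it (-0.16, adjusted p = 0.01). With ERCC factors, all 8 genes were above the sum, as the median gene itself was then 1.98 above it, and HLA-C (1.95) and HLA-E (1.48) turned positive. This comparison, like each single knockout against control, crosses the difference in labelled spike-in between the single knockouts and the other groups. The part of that difference in these results was not tested.

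Sublines with the same label differed in some of the genes. CDK19KO-C1 and C2 differed in 3 of 8 (47.9% of all genes called, 23.8% higher and 24.1% lower). TAPBP was lower in CDK19KO-C1 (102 to 107 CPM) than in C2 (131 to 140 CPM), at a log2 fold change of -0.39. PSMB9 was lower (-1.30) and HLA-C higher (0.27). DKO-C1 and DKO-C2 differed in 2 of 8 (9.38% of all genes called, 3.65% higher and 5.74% lower). TAPBP (-0.31) and HLA-E (-0.17) were lower in DKO-C1. The call of HLA-E was lost without DKO-C1 replicate 1 (adjusted p = 0.0943), DKO-C1 replicate 2 (adjusted p = 0.126) or DKO-C2 replicate b (-0.11, adjusted p = 0.221). TAP1 was called without DKO-C1 replicate 3 (-0.24, adjusted p = 0.0354) or DKO-C2 replicate a (-0.25, adjusted p = 0.015), as was HLA-C without the latter (-0.19, adjusted p = 0.0335). CDK8KO-C1 and C2 differed in B2M alone (21.2% of all genes called, 11.5% higher and 9.7% lower), which was lower in C1 (-0.14). That call was lost without replicate 1 (adjusted p = 0.145) or 2 (adjusted p = 0.0755) of CDK8KO-C1 and without replicate 1 (adjusted p = 0.0559) or 2 (adjusted p = 0.115) of CDK8KO-C2. Without CDK8KO-C2 replicate 2, PSMB9 was called as higher in CDK8KO-C1 (1.09, adjusted p = 0.0225). B2M missed the threshold between the CDK19KO sublines (0.11, adjusted p = 0.0517). It passed without CDK19KO-C1 replicate 1 (0.15, adjusted p = 0.0197) or CDK19KO-C2 replicate 3 (0.16, adjusted p = 0.017), with DESeq2 or its size factors, with a minimum of 5 CPM, with only the libraries compared, and in the numbered libraries with or without the block (0.11 to 0.13, adjusted p of 0.0101 to 0.0465).

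JQ1 raised B2M and part of the set and lowered tapasin and TAP2, in control cells and in DKO-C1. In control cells, 5 of 8 rose and 2 fell (55.9% of all genes were called, 26.9% higher and 29% lower; the median log2 fold change was 0.40 for the set and -0.0229 for all genes). B2M went from 201 to 209 CPM to 331, 316 and 327 CPM, with no overlap, and rose by 0.67 ± 0.0474 (adjusted p = 3.04e-15). TAP1 had 38.9, 34.7 and 35.0 CPM under JQ1 against 25.5 to 26.2 CPM without it (0.49 ± 0.0704, adjusted p = 1.8e-07). HLA-C (0.41 ± 0.0607, adjusted p = 3.41e-07) and HLA-E (0.38 ± 0.0544, adjusted p = 1.07e-07) rose, whereas HLA-B, at 76.2 to 79.3 CPM, did not (-0.07 ± 0.0565, adjusted p = 0.306). The ratio of HLA-B to HLA-C CPM was 0.289 ± 0.0213 (SD, n = 3) under JQ1 against 0.401 ± 0.0124 in control, and their libraries do not overlap.

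TAPBP had 64.7, 64.5 and 62.4 CPM in control+JQ1, all below the 84.7 to 90.6 CPM of control, and fell by 0.46 log2 units (SE 0.0581, adjusted p = 1.06e-08). TAP2, at 25.3 to 28.4 CPM against 33.3 to 35.1, fell by 0.31 (SE 0.0609, adjusted p = 3.01e-05). The transporter subunits thus moved apart, and the ratio of TAP1 to TAP2 CPM went from 0.762 ± 0.0295 (SD, n = 3) to 1.33 ± 0.0811. PSMB9 had 44, 42 and 24 counts against 21 to 25 (0.76 ± 0.244, adjusted p = 0.0077), and its lowest JQ1 library, at 1.36 CPM, overlaps the highest control library at 1.37. The call of PSMB9 was lost without control+JQ1 replicate 1 (0.60, adjusted p = 0.0616).

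In DKO-C1, JQ1 was followed by 5 rises and 2 falls among the 8 genes (50.3% of all genes were called, 24.9% higher and 25.4% lower; median log2 fold change 0.29 for the set and -0.00482 for all genes). B2M had 439 and 426 CPM in the 2 JQ1 libraries against 282 to 302 without it (0.58 ± 0.0516, adjusted p = 2e-12). HLA-E (0.44 ± 0.0583, adjusted p = 3.2e-08) and HLA-C (0.41 ± 0.0660, adjusted p = 1.74e-06) rose. PSMB9, at 89 counts in both JQ1 libraries, rose by 0.57 ± 0.185 (adjusted p = 0.00926), which was lost without DKO-C1 replicate 1 (0.44, adjusted p = 0.0643). HLA-B had 156 and 165 CPM against 138 to 150 (0.17 ± 0.0589, adjusted p = 0.013), a call that was lost without DKO-C1 replicate 1 (adjusted p = 0.052) or DKO-C1+JQ1 replicate a (adjusted p = 0.13).

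TAP2 had 33.5 CPM in both DKO-C1+JQ1 libraries against 45.5 to 48.7, and fell by 0.50 log2 units (SE 0.0646, adjusted p = 2.01e-08). TAPBP had 107 and 109 CPM against 140 to 153 and fell by 0.45 (SE 0.0618, adjusted p = 8.47e-08). TAP1, at 38.0 and 44.5 CPM against 35.7 to 40.0, was not called (0.14 ± 0.0739, adjusted p = 0.104), but was without DKO-C1 replicate 3 (0.20, adjusted p = 0.0422) or DKO-C1+JQ1 replicate 1 (0.26, adjusted p = 0.016). On the ERCC scale no rise under JQ1 was called in either background. The values there were 0.02 to 0.40 in control and 0.14 to 0.32 in DKO-C1 for the genes named as rising, apart from HLA-B in DKO-C1 (-0.10), and the falls of TAP2 and TAPBP were -0.82 to -0.68. HLA-B was then called lower in control (-0.44, adjusted p = 0.0103).

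**Figure D4:**
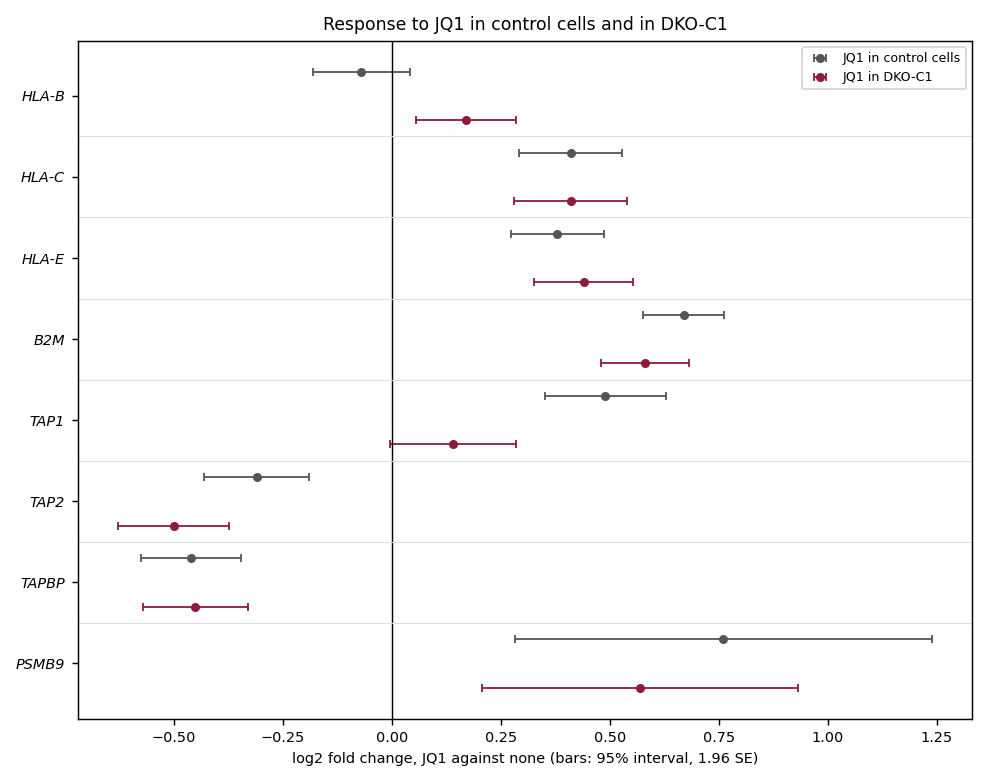
Log2 fold change after JQ1 (horizontal axis) of the 8 tested genes in control cells and in DKO-C1, with 95% intervals. TAPBP (-0.46 and -0.45) and TAP2 (-0.31 and -0.50) lie left of 0 in both backgrounds and B2M (0.67 and 0.58) lies right of it, while TAP1 (0.49 and 0.14) shows the widest gap between the backgrounds; with ERCC factors the responses shift by -0.37 and -0.27.

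The difference between the JQ1 responses was tested itself. It was called in 1 of 8 genes, where 8.55% of all genes were called, 3.86% higher and 4.69% lower. The TAP1 response was smaller in DKO-C1 (-0.34 ± 0.102, adjusted p = 0.0277). This call was lost without control replicate 1 (-0.33), control replicate 3 (-0.34), control+JQ1 replicate 1 (-0.29), DKO-C1 replicate 3 (-0.29) or DKO-C1+JQ1 replicate 1 (-0.24), with adjusted p of 0.0518 to 0.257. HLA-B was at 0.24 ± 0.0817 (adjusted p = 0.0554) and was called without DKO-C1 replicate 3 (0.28, adjusted p = 0.0352). For the other 6 genes the differences were between -0.19 and 0.06, with intervals that lie within -0.79 and 0.41 for PSMB9 and within -0.36 and 0.21 for HLA-C, HLA-E, B2M, TAP2 and TAPBP.

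The order of the groups is given here on the TMM scale, and it differs with ERCC factors. On the TMM scale, the highest level of 5 of the 9 genes was in DKO-C1+JQ1. HLA-C (421 ± 6.48 CPM, SD, n = 2), HLA-E (126 ± 1.71) and B2M (432 ± 9.75) stood there above every other library of the study. With ERCC factors, these genes were at 85%, 72.6% and 87.3% of control in DKO-C1+JQ1. In control+JQ1 they were then at 103%, 102% and 123%. HLA-B (160 ± 6.82) and PSMB9 (4.85 ± 0.0350) overlap DKO-C2, the next group. The lowest group was CDK8KO-C1 for B2M and TAP1, control for HLA-C and HLA-E, CDK19KO-C1 for PSMB9, and control+JQ1 for HLA-B, TAP2 and TAPBP. TAP1 split the groups into a high set of 6, from 36.2 to 42.5 CPM, whose neighbours overlap, and a low set of CDK8KO-C2 (27.1), control (25.9) and CDK8KO-C1 (23.8).

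Over the 9 group means, the genes did not follow a single course. As a description without test, Pearson's r of mean log2 CPM was 0.90 between TAP2 and TAPBP, 0.86 between HLA-B and HLA-C and 0.81 between B2M and PSMB9. It was 0.08 between TAP1 and TAP2 and -0.15 between B2M and TAP2. The groups share controls, sublines and depth, so these points are not independent. By the same measure, the genes most like the mean standardised profile of the set were PIP5K1A (r = 0.978), ZNF83 (0.974), SLC2A8 (0.969), PDE5A and RABEP2 (0.963 each), ST13 (0.961), TLK2 (0.960) and NECTIN2 (0.958), of which NECTIN2 is a cell adhesion molecule. Of the set itself, HLA-B (0.95) and HLA-C (0.90) were closest to that profile and TAP2 (0.52) farthest.

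Other genes of the pathway, 47 in 6 lists, were counted in the same fit. Their directions too are relative to the median gene. Their counts stand against a background of 29.4% of all genes called higher and 32.1% called lower in DKO. In DKO, all 3 genes of the immunoproteasome and its activator rose, namely PSMB10, the remaining induced catalytic subunit (1.12, adjusted p = 6.59e-07), and the activator subunits PSME2 (0.76, adjusted p = 2.73e-15) and PSME1 (0.46). The constitutive subunits PSMB5, PSMB6 and PSMB7 were not called (0 of 3; -0.04 to 0.11). Of 5 tested class I-like heavy chain genes, 3 rose and 0 fell. They were HLA-F (1.08, adjusted p = 1.17e-07) and the stress ligands of NKG2D, MICB (0.97, adjusted p = 2.67e-21) and MICA (0.61, adjusted p = 1.66e-12). HLA-F and the MIC genes are paralogs of the HLA genes, so their counts carry the same uncertainty.

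Of 6 genes for trimming, folding and editing of peptides, 4 rose and 1 fell in DKO, with the trimming enzyme ERAP2 at 0.60 (adjusted p = 0.000352). Of 19 regulators, 11 rose and 2 fell, where 61.5% of all genes were called in either direction. The class I transactivator NLRC5 (0.82, adjusted p = 9e-09) and the kinase gene JAK2 (0.51, adjusted p = 1.62e-06) were among those that rose. IRF9, an interferon regulatory factor (-0.90, adjusted p = 8.55e-05), and RFXAP, a subunit of the RFX complex (-0.80, adjusted p = 3.58e-07), fell. IRF9 rests on 97 summed counts in control and on 61 and 45 in DKO-C1 and DKO-C2. Of 7 tested class II genes, 0 rose and 3 fell, HLA-DQB1 (-1.05, adjusted p = 0.0113) and HLA-DRB1 (-0.89, adjusted p = 0.0234) among them, at 11 to 36 summed counts per group.

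In the single knockouts, 40.5% (CDK8KO) and 43% (CDK19KO) of all genes were called. In CDK8KO, 0 of 3 genes of the immunoproteasome list, 3 of 5 heavy chain genes and 2 of 19 regulators rose, and 5 regulators fell. HLA-F (0.69, adjusted p = 0.000638), MICB (0.53, adjusted p = 4.52e-12) and NFYA, a subunit of the CCAAT-binding factor (0.80, adjusted p = 7.58e-18), rose, and IRF9 (-0.70, adjusted p = 0.0025) and RFXAP (-0.52, adjusted p = 0.000547) fell, as did the trimming enzyme gene ERAP1 (-0.50, adjusted p = 1.07e-05). HLA-DMB rose (0.75, adjusted p = 0.012). In CDK8KO-C2 alone, ERAP1 (-0.21, adjusted p = 0.101), RFXAP (-0.21, adjusted p = 0.237) and HLA-DMB (0.46, adjusted p = 0.235) were not called. In CDK19KO, 1 of 3, 4 of 5 and 8 of 19 rose, and 3 regulators fell. PSMB10 (0.70, adjusted p = 0.00225) and NLRC5 (0.66, adjusted p = 3.18e-06) rose there, whereas NLRC5 was at -0.06 in CDK8KO (adjusted p = 0.706). Of the class II list, HLA-DQB1 rose (0.70, adjusted p = 0.0495) and CIITA, the class II transactivator, fell (-0.55, adjusted p = 0.0465) in CDK19KO. Both rest on CDK19KO-C1 (1.32 and -0.94), as neither was called in C2 alone (0.08, adjusted p = 0.886, and -0.16, adjusted p = 0.643). Compared directly, NLRC5 (-0.72, adjusted p = 5.43e-09) and ERAP1 (-0.51, adjusted p = 2.43e-07) were lower in CDK8KO than in CDK19KO, and NFYA (0.50, adjusted p = 3.38e-15), HLA-DMB (1.01, adjusted p = 8.14e-05) and HLA-DRA (0.82, adjusted p = 0.0279) were higher. HLA-DRA had only 56 and 27 summed counts in CDK8KO-C1 and C2, against 26 and 18 in CDK19KO-C1 and C2. Against the sum of both single effects, PSME2 (0.75), PSME1 (0.54), ERAP2 (0.97), ERAP1 (0.69), IFNGR2 (0.61) and CIITA (0.80) were above it in DKO, and NFYA (-0.79), CD74 (-2.5), HLA-DQB1 (-2.12) and HLA-DRB1 (-2.02) below it, with adjusted p of at most 0.0141 for these. The class II values rest on few counts. CD74 had 10 summed counts in control, 14 and 3 in DKO-C1 and C2, and 9 and 47 in CDK19KO-C1 and C2. HLA-DQB1 had 31 in control and 11 and 20 in DKO-C1 and C2, and HLA-DRB1 had 36, 22 and 17 in that order.

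Under JQ1 in control cells, 9 of 19 regulators rose and 5 fell, and in DKO-C1 8 rose and 4 fell, where 55.9% and 50.3% of all genes were called. The kinase gene JAK1 (0.85 in control, 0.79 in DKO-C1) and STAT2 (0.61 and 0.77) rose and the interferon gamma receptor gene IFNGR2 fell (-0.92 and -0.63), with adjusted p of at most 3.4e-08 for these. The other receptor gene, IFNGR1, rose in DKO-C1 (0.66, adjusted p = 1.11e-10) and RFXAP fell in control (-0.58, adjusted p = 0.000621). PSMB10 fell in both backgrounds (-0.81, adjusted p = 0.0106, and -1.42, adjusted p = 8.42e-06), opposite to PSMB9. ERAP2 (-1.79, adjusted p = 2.04e-08, and -0.97, adjusted p = 4.77e-05) and MR1, which presents microbial metabolites (-1.41, adjusted p = 1.28e-10, and -1.16, adjusted p = 3.08e-07), fell, HFE fell in control (-0.80, adjusted p = 9.01e-09), MICA rose (0.59 and 0.70) and the tapasin relative TAPBPL rose (1.12, adjusted p = 0.00111, and 0.70, adjusted p = 0.0329). Of the class II list, HLA-DMB, which edits class II peptides, rose in both (1.91, adjusted p = 4.6e-09, and 1.6, adjusted p = 2.71e-06), HLA-DMA rose in DKO-C1 (0.53) and HLA-DRB1 fell in control (-1.59, adjusted p = 0.0034). The constitutive subunits fell in 3 of 3 genes in control and in 2 of 3 in DKO-C1, at -0.33 to -0.12 where called. For the difference between the JQ1 responses, 1 gene of the 6 lists was called, HFE (0.52, adjusted p = 0.0149).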

How the data were processed

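The authors deposited 1 table of raw read counts per gene for 26 RNA-seq libraries of 100-base read pairs. Reads were aligned to hg38 with STAR 2.5.2 and counted with featureCounts of Subread 1.6.3, per the submitters' processing notes. No annotation release, strand setting or rule for reads that fit several genes is stated in the sources used here. Of the columns, 22 matched 1 sample and 4 matched only a group, which includes the columns of DKO-C2, whose names have the subline number 3 and were matched by elimination. Gene counts were 17700864 to 19093094 per library. Pairs of libraries within a group differed by more than sampling noise (chi-square per degree of freedom 1.41 to 13.2 over 25 pairs), so each was counted once. Nothing says that replicates came from separate cultures, and p-values then measure only the spread between these libraries.

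Genes were filtered in edgeR 4.0.16 (R 4.3.3; minimum count 10 and minimum total 15), scaled by TMM (factors 0.956 to 1.02) and fitted in 1 quasi-likelihood model over all 26 libraries, without ERCC transcripts. P-values were adjusted by Benjamini-Hochberg over the 17198 genes tested, with a threshold of 0.05. Intervals are the estimate ± 1.96 SE, and CPM are TMM-scaled. Knockout comparisons weight both sublines equally. The code was tested on simulated data. The alternatives were DESeq2 1.42.0, DESeq2 size factors, ERCC factors, no filter or a minimum of 5 CPM, only the libraries compared, a replicate block, and each library left out. Single sublines, and the numbered libraries without a block, were added after seeing the data. Likeness used log2 CPM with 0.5 added. The genes and lists were chosen with earlier results of these data known. All 9 genes are named throughout, and a gene of a list is named where called with a log2 fold change of at least 0.5 in size, at most 4 per list and comparison. Replicate numbers did not pair libraries, as same-numbered deviations had r of -0.06 to 0.07 over 21 pairs of groups.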

Additional observations from a re-analysis of the deposited data

Results flagged for a closer look

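A set of 7 values was flagged because a difference between sublines of the same label, or between the JQ1 responses, was itself tested and called. Calls of CDK8KO against CDK19KO (6 of 8 genes) and of DKO against the sum (4 of 8) are described above and are not part of this set. The TAP1 response to JQ1 was smaller in DKO-C1 than in control (-0.34, SE 0.102, edgeR adjusted p = 0.0277). This call was lost with ERCC factors (-0.25, adjusted p = 0.93) and without single libraries of each of the 4 groups, as given above. Between the CDK19KO sublines, C1 against C2, TAPBP (-0.39, SE 0.0551, adjusted p = 1.9e-07) and PSMB9 (-1.30, SE 0.378, adjusted p = 0.0041) were lower and HLA-C was higher (0.27, SE 0.0605, adjusted p = 0.000371). Between the DKO sublines, TAPBP (-0.31, SE 0.0535, adjusted p = 6.89e-05) and HLA-E (-0.17, SE 0.053, adjusted p = 0.0316) were lower in C1. Between the CDK8KO sublines, B2M was lower in C1 (-0.14, SE 0.0486, adjusted p = 0.0292). That call was lost without replicate 1 or 2 of either subline, with no filter (adjusted p = 0.066) and with ERCC factors (-0.09, adjusted p = 0.911). ERCC factors also removed the calls of HLA-C between the CDK19KO sublines (0.04, adjusted p = 0.871) and of HLA-E between the DKO sublines (-0.40, adjusted p = 0.0867). No group had more than 3 libraries, so no outlying value within a group was tested. Over all genes DKO-C2 replicate b differed most from its group (chi-square per degree of freedom 13.2 and 10.8), and without it HLA-E was no longer called between the DKO sublines (-0.11, adjusted p = 0.221) and TAPBP was at -0.21.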

How the results depend on the processing

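The scaling moved most. With ERCC factors the median gene shifted by -1.22 in CDK8KO, -1.65 in CDK19KO, -0.90 in DKO, 0.43 between the single knockouts, 1.97 beyond the sum, and -0.37 and -0.27 for JQ1. In CDK8KO, HLA-B (-0.80), HLA-C (-0.76), HLA-E (-0.61), TAP2 (-1.05) and TAPBP (-0.77) turned negative. In CDK19KO these were HLA-B (-1.36), HLA-C (-1.38), HLA-E (-1.30), TAP1 (-1.12), TAP2 (-1.55) and TAPBP (-1.21). In DKO they were HLA-B (-0.07), HLA-C (-0.20), HLA-E (-0.43), B2M (-0.34), TAP1 (-0.27) and TAP2 (-0.48), and 5 of the 8 genes were called, 1 higher and 4 lower. B2M between the single knockouts (0.11), HLA-C (1.95) and HLA-E (1.48) beyond the sum, and HLA-B under JQ1 in DKO-C1 (-0.10) also changed sign. Of the 8, 8 were called beyond the sum, 3 for JQ1 in control, 2 for JQ1 in DKO-C1, 0 for the difference of responses, 0 between the CDK8KO sublines and 1 between the DKO sublines. Over all genes, ERCC factors gave 16258 calls in CDK8KO (53 higher, 16205 lower), 16849 in CDK19KO (33 and 16816), 12561 between the single knockouts (12141 and 420), 16508 beyond the sum (15473 and 1035), 137 for the difference of JQ1 responses, and 966, 5207 and 983 between the CDK8KO, CDK19KO and DKO sublines. TMM gave 6969, 7390, 8098, 10185, 1470, 3643, 8246 and 1614 in that order. The totals with ERCC factors for DKO against control and for JQ1 in each background are not given here.

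In the C2 sublines alone, TAPBP (-0.20) and PSMB9 (-0.27) changed sign between the single knockouts. Same-numbered libraries share only a number. TAPBP beyond the sum, at 0 and not called over all libraries, was called at -0.16 with the replicate block (adjusted p = 0.0124) and at -0.16 in the same numbered libraries without it (adjusted p = 0.01), and 2 of 8 genes were called between the CDK8KO sublines in both. With no filter, 0 of the 8 were called between the CDK8KO sublines and 1 between the DKO sublines. With a minimum of 5 CPM, which drops PSMB9, 2 were called for the difference of JQ1 responses. With only the libraries compared, 3 were called between the CDK8KO sublines, and 675 genes and 1 of the 8 between the DKO sublines. With each library left out in turn, calls for the difference of JQ1 responses ran from 918 to 1439 genes and 0 to 1 of the 8, calls between the CDK8KO sublines from 0 to 1 of the 8, and calls between the DKO sublines from 995 to 2128 genes and 1 to 4 of the 8. No value that was called in either fit changed sign when a library was left out, nor with DESeq2 or its size factors. With a library left out, 764 values kept their call or lack of one, 25 lost the call and 11 gained it. These counts were 86, 1 and 1 with DESeq2 and 87, 0 and 1 with its size factors. Values not called in either fit could change sign. TAPBP beyond the sum, at 0 over all libraries, was at -0.04 without DKO-C2 replicate b. Depth limits PSMB8 and PSMB9, and shared sequence limits the HLA genes and TAP2. The causes of these changes were not tested.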
